A study of Mus musculus with 9 samples.

Results

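The comparison described here set the epididymis of 56-day-old mice (P56) against that of 42-day-old mice (P42), and asked which genes moved the same way in the caput, the corpus and the cauda. The cells were chosen by count limits alone: barcodes with 300 to 4000 detected genes, at most 20000 UMIs (unique molecular identifiers, 1 per captured RNA molecule), under 50% mitochondrial UMIs and under 20% globin UMIs were kept, which left 41328 of 44869 barcodes, 12750 at P42 and 28578 at P56. UMIs were then summed per library, so that each of the 9 libraries was 1 data point.

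All mice were untreated C57BL/6. The P42 group was 1 pool of 5 mice, whose caput, corpus and cauda each gave 1 library. The P56 group was 10 mice in 2 pools, replicate 1 and replicate 2, and each segment of each pool gave 1 library, so there were 3 libraries at P42 and 6 at P56. Because each pool's mice gave all 3 of its libraries and there was no second P42 pool, the age of the mice and anything else particular to that pool (dissection, dissociation, library preparation) cannot be told apart, and the p-values below are too small as statements about the ages.

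The epididymis is the coiled duct in which sperm leaving the testis mature and are stored. Its principal cells secrete, under androgen control, segment-specific proteins that coat sperm and keep the lumen free of microbes: cysteine-rich secretory proteins, beta-defensins, lipocalins and protease inhibitors. Around the duct lie fibroblasts, which make collagen and other matrix, together with smooth muscle, vessels and macrophages. Sperm first reach the duct around puberty, while the epithelium is still maturing.

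The kept barcodes held 18897048 to 40869969 UMIs per library, with median values of 3086 to 7644 UMIs per barcode. Pairs of libraries shared 1 to 26 barcode sequences, and doublets were not removed. The markers fit the labelled organ, since all 20 principal cell markers were detected and their summed level was highest in the caput at each age. The P42 cauda library stood apart. Its 10 fibroblast markers (Col1a1, Col1a2, Col3a1, Dcn and others) summed to 43411 unscaled CPM (the usual depth-normalised count, here the UMIs of the list relative to all kept UMIs of the library), against 7868 in the P42 corpus, 2243 in the P42 caput and 421 to 1533 in the 6 P56 libraries. Its 20 principal cell markers summed to 9812 unscaled CPM, against 52410 and 57993 in the P56 cauda. The 12 macrophage markers followed the fibroblast ones, with 718, 1700 and 4848 unscaled CPM in the caput, corpus and cauda at P42 and 170 to 540 at P56. The 5 erythroid genes summed to 6947, 14333 and 6167 unscaled CPM in the P42 caput, corpus and cauda and to 261 to 4088 at P56, with 4 of 5 called lower, all 4 shared. The barcode limit on globin used these genes, and it alone removed 99 to 356 barcodes per library at P42 and 2 to 59 at P56. The part of red cell RNA in the results was not tested. No defining marker of these lists was at 0 in all libraries.

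**Figure D1:**
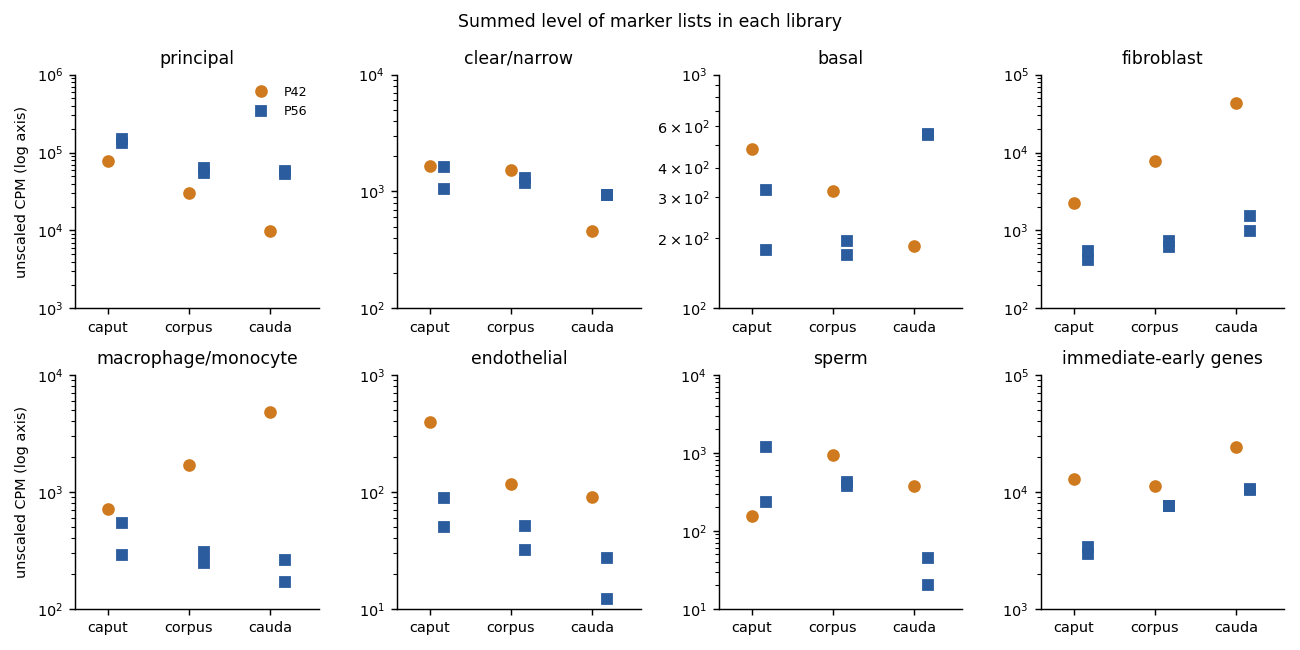
Summed unscaled CPM (log axis) of 7 marker lists and of the immediate-early genes, by segment, with 1 circle for the P42 library and 2 squares for the P56 libraries. The fibroblast markers of the P42 cauda reach 43411 unscaled CPM, while all 6 P56 libraries lie at or below 1533.

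The UMIs were also more evenly spread over genes at P42. The 50 highest genes took 28.4% to 31.1% of a P42 library and 36.9% to 44.8% of a P56 library. TMM scaling, which sets aside the most extreme genes when it fixes a library's effective size, accordingly gave factors of 1.30 to 1.32 at P42 and 0.778 to 1.09 at P56. Levels below are TMM-scaled CPM unless they are called unscaled. With these factors the median log2 fold change (P56 against P42) of all 21256 genes tested was 0.0216, and with the factors set to 1 it was -0.556, a shift of -0.578. Changes are therefore given relative to the TMM scaling, and sums over cells cannot tell fewer cells of a type from less RNA per cell.

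Called genes passed 2 limits in edgeR's quasi-likelihood test with segment as a block: the p adjusted by Benjamini-Hochberg lay under 0.05, and the log2 fold change was 1 or more in size. By this rule 848 genes (3.99%) were higher and 2520 (11.9%) lower at P56. Called genes were counted as shared when each segment changed in that direction by at least 0.5 on the log2 scale and both P56 libraries lay beyond the P42 library of their segment. There were 624 shared genes (2.94%) that were higher and 1993 (9.38%) that were lower, which is 73.6% and 79.1% of those called. Of the genes called higher, 15 went the opposite way in some segment, as did 79 of those called lower. The segment limit was a cut through a continuum, and Pmvk was just inside it at 0.502. Of the shared genes that were higher, 322 had only predicted-gene or clone names (Gm, Rik and the like), against 162 of those lower.

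The direction counts leaned on the scaling. Called genes were 25.2% higher with TMM and 3.7% higher with the factors set to 1. Under that alternative 160 of the 624 higher and 1993 of the 1993 lower shared genes were still called. The shared genes that were higher summed to 57321 CPM (TMM-scaled) on average at P42 and to 198050 CPM at P56, and those that were lower to 67030 CPM and 12413 CPM. The size of the change grew along the duct. From caput to corpus to cauda, the median log2 fold change of the higher genes was 1.15, 1.27 and 1.96, and that of the lower genes was -1.21, -1.84 and -2.94. In the cauda the fold change was the largest of the 3 segments for 422 higher and 1632 lower genes, the segment whose P42 library held the most fibroblast and macrophage UMIs.

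Support came from the libraries unevenly. Without the cauda, 394 genes were shared and higher and 1243 lower over the remaining segments, and of the 624 and 1993 genes 252 and 1135 were found again. With P56 replicate 1 left out, edgeR called 0 genes, although 4395 had an unadjusted p under 0.05. With P56 replicate 2 left out it also called 0 (4988 at an unadjusted p under 0.05), and without the corpus 0 (5809). DESeq2, run on the same reduced sets after these counts were seen, called 474 genes higher and 1452 lower without replicate 1, 628 and 1571 without replicate 2, and 852 and 1853 without the corpus. All of these fits share the P42 pool.

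Secreted and sperm-coat proteins were among the genes higher at P56. Crisp1, a cysteine-rich protein that principal cells secrete onto sperm, stood at 80.4, 5372 and 3081 CPM in the P42 caput, corpus and cauda. At P56 it stood at 307 and 393 CPM (caput), 19768 and 21130 CPM (corpus) and 28625 and 32745 CPM (cauda). Within each segment the ages did not overlap, which the rule for shared genes fixes, while across segments they did, since the P56 caput lay under the P42 corpus. Its log2 fold change was 2.41 ± 0.35 (SE; adjusted p = 0.0049), 2.12, 1.93 and 3.32 in the caput, corpus and cauda. Cd52, a small glycolipid-anchored glycoprotein of lymphocytes that the epididymis also sheds onto sperm, had 257, 6863 and 6566 CPM in the caput, corpus and cauda at P42. At P56 its 6 libraries ran from 712 CPM, in the caput, to 51969 CPM, in the cauda. Its log2 fold change was 2.02 ± 0.354 (adjusted p = 0.00794).

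Spink8, a Kazal-type serine protease inhibitor, had the highest level of the inhibitors. It held 2307, 10525 and 3164 CPM in the caput, corpus and cauda at P42. At P56 it held 4873 and 4868 CPM (caput), 31627 and 30648 CPM (corpus) and 31772 and 32578 CPM (cauda). The 2 pools lay close together, and the P42 library lay under them in every segment. The log2 fold change was 1.87 ± 0.444 (adjusted p = 0.0197), from 1.08 in the caput to 3.35 in the cauda. Rnase9, a ribonuclease A family member of the epididymis, was lowest in the cauda at each age, with 15.1 CPM at P42 and 188 and 167 CPM at P56. Its caput rose from 625 to 2162 and 2499 CPM, and its corpus from 723 to 2706 and 1613 CPM, for a log2 fold change of 2.24 ± 0.394 (adjusted p = 0.00811). Ces5a, a carboxylesterase secreted into the lumen, changed by 2.07 ± 0.319 (adjusted p = 0.00561) and reached 5100 and 5835 CPM in the P56 cauda, against 634 CPM at P42.

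**Figure D2:**
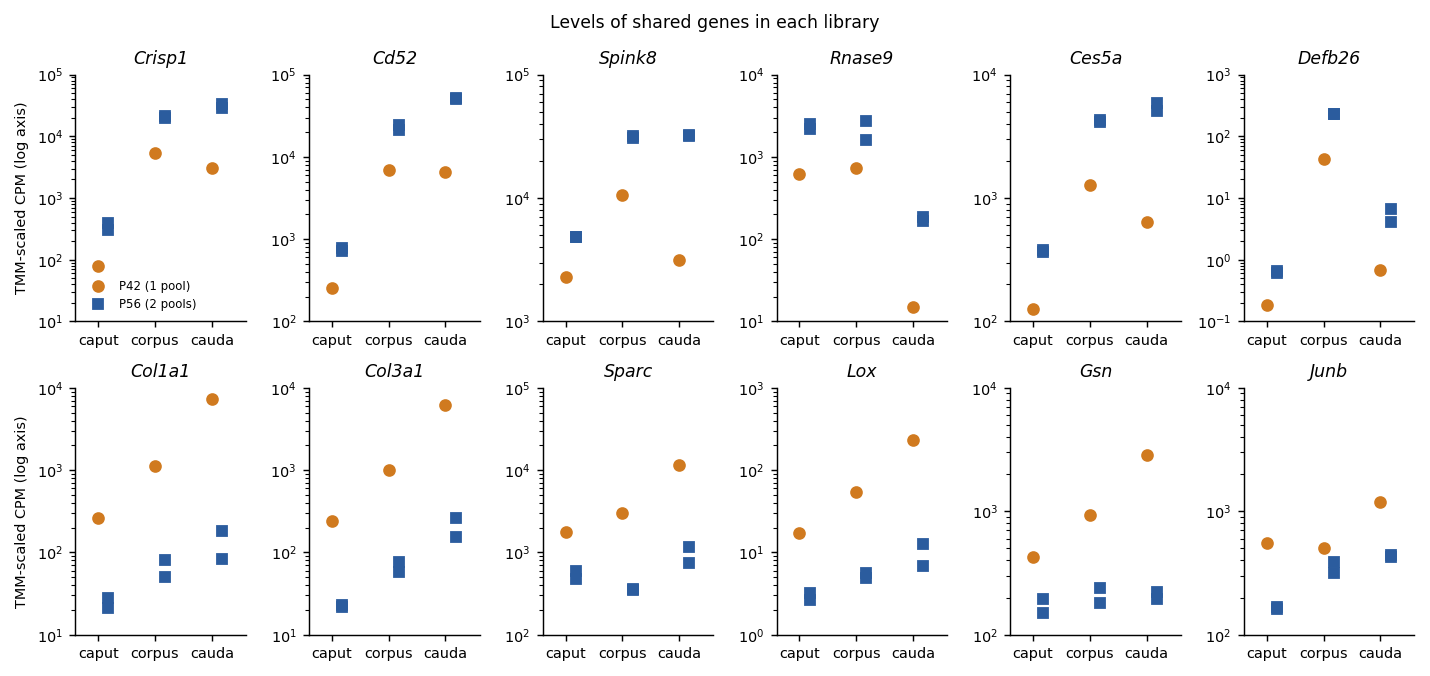
Level of 12 shared genes (TMM-scaled CPM, log axis) in the 9 libraries, by segment, with circles for the P42 pool and squares for the 2 P56 pools. In the top row both squares lie above the circle in each segment (Crisp1 in the cauda: 28625 and 32745 against 3081 CPM), and in the bottom row both lie below it (Col1a1 in the cauda: 182 and 83.2 against 7302 CPM).

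The ranking by the smallest change of the 3 segments also placed Defb26, Glb1l3, Pate1, Btg3, Fam221b, Azgp1, Dapl1 and Fam24b among the first 12, after 61 predicted or clone names among the 237 higher genes of at least 10 CPM had been set aside. Defb26, a beta-defensin (small cationic antimicrobial peptides), belonged mainly to the corpus, with 42.5 CPM at P42 and 228 in each P56 pool, and changed by 2.48 ± 0.253 (adjusted p = 0.00257). Pate1, of a family of small secreted sperm-binding proteins, also peaked in the corpus, at 812 CPM at P42 and 2386 and 2243 CPM at P56. Glb1l3, a galactosidase-like gene, changed by 1.91 ± 0.255. Azgp1, a zinc-binding glycoprotein of seminal fluid, had its largest level in the cauda, with 8.92 CPM at P42 and 41.4 and 59.9 at P56. Its corpus fold change of 4.36 on the log2 scale rested on 0.0394 CPM at P42. Btg3, an antiproliferative gene, had 10.1, 14.3 and 21.7 CPM in the P42 caput, corpus and cauda and 29.9 to 81.3 CPM at P56, so the ages did not overlap even across segments. Fam221b went the other way along the duct, since its log2 fold change fell from 3.47 in the caput to 2.77 and 1.45.

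Over all genes tested 3.99% rose and 11.9% fell. These shares stand beside every TMM-scaled list and family count over all kept cells below. With the TMM factors set to 1, 202 of the 21256 genes were called higher and 5257 lower. Those totals stand beside the counts with the factors at 1. Counts within marker-led cells (defined below) stand beside the shares of their own class. By families, which were fixed by gene symbol, 14 of 39 tested beta-defensins rose and none fell, and all 14 were shared. Their median log2 fold change over the 39 genes was 1.19, and with the TMM factors set to 1 it was 0.599 and 3 of the 14 were still called. Defb28, at 129, 4440 and 1465 CPM in the P42 caput, corpus and cauda and 223 to 12057 CPM at P56, had the largest level of the 14, with a log2 fold change of 1.62 ± 0.38 (adjusted p = 0.019). Of 15 Spink and Spint protease inhibitors 8 rose, 7 of them shared, and none fell (median 1.37). With the factors at 1 their median was 0.791, with 6 calls. Of 18 Wfdc genes, which encode whey acidic protein-type inhibitors, 9 rose, 6 of them shared, and 1 fell (median 1.30). With the factors at 1 the Wfdc median was 0.742, with 3 higher and 4 lower. Wfdc10 reached 12275 and 11097 CPM in the P56 cauda against 2001 CPM at P42, a log2 fold change of 1.47 ± 0.366 (adjusted p = 0.0232) that was 0.90 with the factors at 1, under the fold limit. The gene that fell was Wfdc1, which is known from stroma, by 1.80 on the log2 scale. The Pate, Crisp and ribonuclease A families were looked at after their members had been seen among the leading genes. In these, 5 of 10 Pate genes, 2 of 4 Crisp genes (Crisp1 and Crisp4) and 4 of 8 ribonuclease A genes rose, while Rnase4 fell by 1.56. Of the Pate genes that rose 3 were shared, as were the 2 Crisp and 4 ribonuclease A genes. With the factors at 1 the counts called higher were 2 for Pate and 3 for ribonuclease A. Of the lipocalins 0 of 9 tested were called by edgeR, with a median of 0.0325. With the factors at 1 the lipocalin median was -0.58 and 3 of the 9 were called lower. Lcn8 and Lcn9 are caput genes, at 7463 and 8410 CPM in the P42 caput and at most 33.1 CPM in every corpus and cauda library. In the P56 caput Lcn8 had 19395 and 14994 CPM and Lcn9 20488 and 15104 CPM. Over the segments Lcn8 changed by 0.03 ± 0.398 and Lcn9 by 0.00 ± 0.441, against 1.2 and 1.08 in the caput alone and -0.78 and -0.75 in the cauda alone.

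Of the 20 principal cell markers 7 rose, 6 of them shared, and none fell, with a median of 0.926. With the TMM factors set to 1 the median was 0.331 and 5 were called higher. Gpx5, the secreted glutathione peroxidase of the caput and the highest of them by its mean over all libraries, changed by 1.26 ± 0.496 and missed the threshold (adjusted p = 0.0911). Among 18 tested genes of androgen signalling and its targets, 3 rose: Crisp1, Adam7 (1.78 ± 0.411), a sperm-coat membrane protein of the epididymis, and Srd5a2 (1.28 ± 0.375), the enzyme that makes dihydrotestosterone. The median of this list was 0.416. With the factors set to 1 it was -0.161, Srd5a2 was no longer called, and 3 other genes were called lower.

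Lipid and secretory pathway genes moved in part. Of 16 cholesterol synthesis genes 6 rose and none fell (median 1.16). With the factors at 1 the median was 0.607, 2 were called higher and 1 lower, and Mvd, Insig1, Nsdhl and Cyp51 (0.94) lost their calls. The 4 shared ones were Fdps, Idi1, Mvd and Insig1, the first 3 enzymes of the mevalonate route and the last a regulator of it. The abundant members missed the shared limit. Cyp51 rose by 1.49 ± 0.47 but by only 0.44 in the caput, and Msmo1 changed by 1.39 ± 0.525 (adjusted p = 0.0812), 0.14 in the caput and 3.36 in the cauda. Of 19 chaperones and unfolded protein response genes of the endoplasmic reticulum 5 rose, 1 of them shared, and Atf5 fell (median 0.736). With the factors at 1 the median was 0.163, none of the 5 was called (Pdia6 1.07 and 0.50), and 2 genes of the list were called lower. Hspa5, the main chaperone of that compartment, changed by 0.96 ± 0.261 (adjusted p = 0.0301), just under the fold limit. Of 13 mitochondrially encoded genes 3 rose, mt-Cytb (1.27 ± 0.253), mt-Nd1 (1 ± 0.213) and mt-Nd4 (1.05 ± 0.203), all shared. Their list's median was 0.915. With the factors at 1 it was 0.34 and none of the 3 was called (mt-Cytb 0.70, mt-Nd1 0.42). The limit of 50% mitochondrial UMIs that chose the barcodes used these genes, so their levels and the shares that follow are a description. Mitochondrial UMIs were 6.61%, 14.9% and 10.4% of the sums of the P42 caput, corpus and cauda. The P56 caput held 6.89% and 6.52%, the corpus 18.6% and 23.1%, and the cauda 17.5% and 15.8%. The caput shares thus lay on either side of P42. CT010467.1, a gene with only a clone name, was the one other higher shared gene of very high level, at 3195 to 4177 CPM at P42 and 7563 to 23688 CPM at P56. Its P56 pools lay apart, at 13446 and 7563 CPM in the caput and 10254 and 23688 CPM in the cauda.

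Genes of the extracellular matrix were lower at P56. All 25 genes of the fibrillar collagen and matrix list fell, 24 of them shared, with a median log2 fold change of -3.48, against 0.0216 over all genes. Col1a1, the alpha-1 chain of type I collagen, had 260, 1131 and 7302 CPM in the P42 caput, corpus and cauda. At P56 it had 28.1 and 21.4 CPM (caput), 82 and 50 CPM (corpus) and 182 and 83.2 CPM (cauda). The lowest P42 library thus lay above all 6 P56 libraries. It fell by 4.53 on the log2 scale (SE 0.459, adjusted p = 0.00257), which is 23.1-fold. Col3a1, of type III collagen, had 238, 1014 and 6210 CPM at P42 and 21.5 to 265 CPM at P56, and fell by 4.12 (SE 0.291, adjusted p = 0.00136). For this gene the P56 cauda of replicate 1 lay above the P42 caput, though far below the P42 cauda. Col1a2 fell by 3.95, from 517, 1796 and 10306 CPM at P42 to 72.8 to 428 CPM at P56.

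Further matrix genes of the same rank included the minor collagens Col5a2 (-3.86 ± 0.335) and Col6a2 (-3.86 ± 0.382) and Col6a3 (-3.70 ± 0.451). Lox, the enzyme that cross-links collagen and elastin, had 17.4, 53.6 and 235 CPM at P42 and 2.64 to 12.6 CPM at P56, with no overlap between the ages. Eln, which encodes elastin itself, fell by 3.40 (SE 0.257), and nearly equally in the caput, corpus and cauda (3.14, 3.54 and 3.50 lower). Fbln5, an elastic fibre protein, fell by 3.08. Sparc, a secreted collagen-binding protein and the highest of the list, had 1773, 2985 and 11671 CPM at P42 and 348 to 1178 CPM at P56, again with no overlap, and fell by 2.88 (SE 0.331, adjusted p = 0.00358). Dcn, a small proteoglycan, fell less in the caput (1.02) than in the cauda (3.08), and its P42 caput, at 601 CPM, lay within the P56 range of 264 to 1023 CPM. Gsn, which severs actin filaments, had 428, 930 and 2838 CPM at P42 and 149 to 241 CPM at P56.

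Of 14 basement membrane genes 11 fell and none rose (median -2.09). Col4a1, of type IV collagen, had 78.3, 49.7 and 122 CPM at P42 and 5.88 to 15.7 CPM at P56, and fell by 2.85 (SE 0.211, adjusted p = 0.0014). Col15a1 fell by 3.94 and Nid1, which links laminin to collagen, by 2.99. Col18a1 did not pass (-0.58 ± 0.236, adjusted p = 0.0962). Of 10 endothelial markers 6 fell, among them Kdr, the main receptor for vascular endothelial growth factor, by 2.30. The abundant markers Egfl7 (-0.61 ± 0.395), Emcn (-1.11 ± 0.53) and Flt1 (-1.14 ± 0.532) did not pass. Egfl7 changed by 0.51 in the corpus, and Emcn and Flt1 by 0.34 and 0.68 in the cauda. Fabp4, a fatty acid carrier of adipocytes and capillary endothelium, had its largest change in the caput, as did 116 of the 1993 lower shared genes, from 16.2 CPM at P42 to 0.617 and 1.18 CPM, and fell by 3.52 (SE 0.38). The summed endothelial markers were 393, 117 and 90.3 unscaled CPM in the P42 caput, corpus and cauda, and 12.1 to 87.7 at P56.

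**Figure D3:**
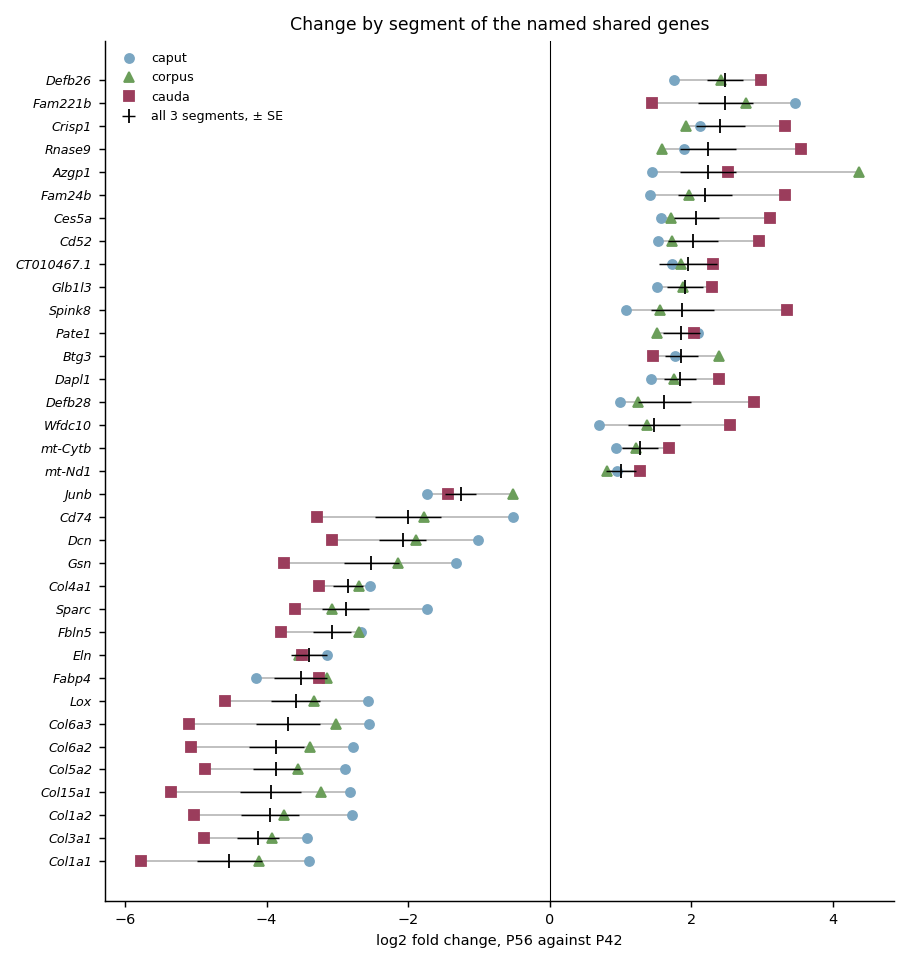
Log2 fold change, P56 against P42, of the 35 named shared genes in the caput, corpus and cauda (symbols) and over all 3 segments (tick with SE bar). Collagen genes show the largest drops in the cauda (Col1a1 -5.78), whereas Fabp4 and Junb changed most in the caput.

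Growth-related genes were also lower. Of 16 imprinted growth genes 12 fell and none rose (median -2.19), 11 of them shared. Cdkn1c, a cell cycle inhibitor, fell by 2.32, Ndn by 2.25 and Sgce by 2.14, while Gnas did not pass (0.22 ± 0.164). Of the 11 genes of the insulin-like growth factor axis 6 fell. Igf1, the growth factor itself, fell by 3.35 (SE 0.436, adjusted p = 0.00411), and its receptor gene Igf1r changed by -0.02 ± 0.12. The binding proteins Igfbp3, Igfbp4, Igfbp5 and Igfbp6 fell by 2.80, 2.79, 2.01 and 2.02. H19, Dlk1 and Igf2, picked out here after their values were seen, were low at each age (6.54, 10.7 and 0.789 CPM on average at P42) and fell by 4.48, 4.03 and 3.05. Of 24 cell cycle genes 10 fell and none rose (median -0.949), including Mki67 (-1.56 ± 0.223) and Top2a (-1.07 ± 0.14), both markers of dividing cells. With the factors at 1, 20 of the 24 fell (median -1.54), so this count leaned on the scaling. The 4 most abundant members, Tuba1b, Hmgb2, Pcna and Stmn1, did not pass. At P42, cells led by fibroblast markers (defined below) held 33.6% of the Cdkn1c and 33.9% of the Igf1 UMIs, against 8.38% of all UMIs. In clear/narrow-led cells (also defined below) 1 of 10 imprinted growth genes and 0 of 20 cell cycle genes were lower. Of all genes tested in that class 2.32% were lower. In principal-led cells the counts were 9 of 14 and 12 of 24, beside 4.77% of all genes tested there. Those counts include the P42 cauda. In its median principal-led cell, fibroblast markers took more of the UMIs (2.07%) than principal cell markers (1.82%).

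Genes of antigen-presenting cells and macrophages fell, while the sums of the MHC class I and interferon-stimulated genes were lower or higher depending on the segment. All 7 MHC class II genes, which present antigen to helper T cells, fell (5 shared, median -2.21). Cd74, their invariant chain, had 409, 1113 and 2196 CPM in the P42 caput, corpus and cauda and 161 to 362 CPM at P56, with a log2 fold change of -0.51 in the caput and -3.29 in the cauda. All 12 macrophage markers fell too, but only 5 were shared, since most changed little in the caput: Lyz2 and C1qc changed by -0.27 and -0.40 there against -4.43 and -3.74 in the cauda. The P42 caput level of Lyz2, at 121 CPM, lay between the P56 caput values of 74.3 and 126 CPM. Of 11 MHC class I genes 5 fell, namely the transporter genes Tap1 and Tap2, Psmb8, Nlrc5 and H2-Q7. The abundant members B2m (1.13 ± 0.391, adjusted p = 0.0634), H2-K1 (0.63 ± 0.256) and H2-D1 (0.13 ± 0.171) did not pass, and B2m had 2274 CPM in the P42 cauda against 11020 and 11778 CPM at P56. The 11 class I genes summed to 4028, 4975 and 5026 unscaled CPM in the P42 caput, corpus and cauda. At P56 they summed to less in the caput (2623 and 3825) and to more in the corpus (6776 and 6727) and the cauda (10020 and 11015). Of 24 interferon-stimulated genes 5 fell, beside 11.9% of all genes tested, and none rose (median -0.573). Ifi27l2a was the most abundant of those 5 (-2.66 ± 0.387). With the factors at 1, 14 of the 24 fell (median -1.15). The sum of the list in the cauda was nevertheless 3428 unscaled CPM at P42 against 4084 and 4482 at P56. Of 16 acute inflammatory genes 8 fell and none rose. The sum of the 16 was lower at P56 in each segment, by little in the caput (7420 unscaled CPM at P42 against 7295 and 7009). Lcn2 made up most of this caput sum, with TMM-scaled levels of 4806 CPM at P42 and 7531 and 5935 CPM at P56. Lcn2 was not called (0.67 ± 0.484, adjusted p = 0.324), and changed by 0.49, -0.43 and 2.54 in the caput, corpus and cauda. The caput sum therefore says little about the other genes. Nfkbia, the next by level, changed by -1.23, 0.16 and 0.71. Cxcl2, a neutrophil attractant, fell by 2.64 (SE 0.178, adjusted p = 0.00117), with log2 fold changes of -2.33, -2.37 and -3.16 in the caput, corpus and cauda.

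Immediate-early genes, which cells switch on within minutes of a stimulus and which tissue dissociation is known to induce, were lower in part. Of 20 tested 9 fell and none rose (median -0.876), and 5 were shared: Dusp1, Junb, Klf4, Myc and Nr4a1. With the factors at 1, 13 of the 20 fell (median -1.44). Junb, a subunit of the AP-1 transcription factor, had 549, 502 and 1183 CPM at P42. At P56 it had 163 and 167 CPM (caput), 315 and 387 CPM (corpus) and 446 and 429 CPM (cauda), and it fell by 1.26 (SE 0.216, adjusted p = 0.00732). Dusp1, a phosphatase that ends MAP kinase signals, named here after its values were seen, fell by 2.48 (SE 0.142, adjusted p = 0.000389). Fos and Jun, the most abundant with Atf3 and Btg2, fell by 1.05 and 1.07 overall but by 0.02 and 0.23 in the corpus, so that neither was shared. Atf3 changed by -2.03 in the caput and by 1.22 and 1.33 in the corpus and cauda. The summed list stood at 12803, 11102 and 24117 unscaled CPM in the P42 caput, corpus and cauda and at 2947 to 10613 at P56. Whether the dissociation of the pools differed was not tested.

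**Figure D4:**
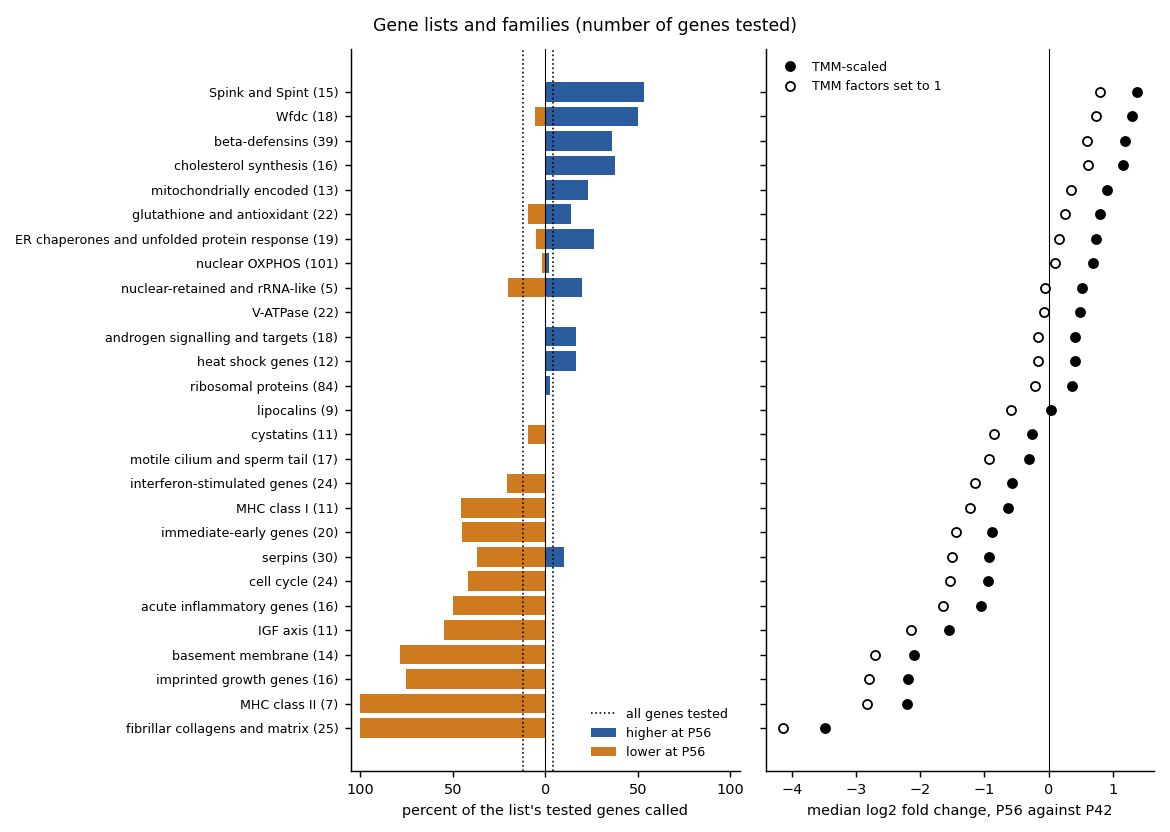
Left, percent of each list's tested genes that were called higher (right of 0) or lower (left of 0) at P56, with dotted lines at 3.99% and 11.9% for all genes. Right, median log2 fold change with TMM scaling (filled) and with TMM factors set to 1 (open), which shifts each median down and takes the lists near 0 across it.

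Several lists gave no shared direction. Of 84 ribosomal protein genes 2 rose (median 0.366, but -0.211 with the TMM factors at 1), and of 101 nuclear genes of oxidative phosphorylation 2 rose and 2 fell (0.683 and 0.0945). No V-ATPase gene was called of 22 (0.494 and -0.075), and the 10 tested clear/narrow cell markers also gave 0 calls by edgeR (0.398 and -0.15). With the factors at 1, 2 V-ATPase genes and 1 clear/narrow marker were called lower. The sign of the median turned with the scaling for these ribosomal, V-ATPase and clear/narrow lists, and also for the androgen, heat shock, lipocalin, basal, ciliated, nuclear-retained and Adam lists. Of 12 heat shock genes 2 rose (0.403 and -0.165), and 0 with the factors at 1, where 2 others fell. Of 9 basal cell markers 1 fell, which was shared, and none rose. The basal cell markers Krt14, Krt15 and Krt5 did not pass, with log2 fold changes of -0.23, -0.68 and -0.68 in the caput and 2.85, 1.84 and 1.14 in the cauda. Of the 12 sperm markers 0 were called by edgeR. Prm1 and Prm2, which pack sperm DNA, changed by 2.44 and 3.85 in the caput and by -4.04 and -3.95 in the cauda, and the 2 P56 caput libraries differed, with 235 and 1195 unscaled CPM over the list.

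The windows upstream of the transcription start are shown for the 2 leading genes of each direction whose window in the RefSeq promoter table lies outside the gene itself, as the sequence in which motifs were looked for (GRCm38.p6, 250 bases, 5′ to 3′ on the gene's strand). Capitals mark matches to TATAAA (the TATA box), AGAACA (1 arm of the androgen receptor palindrome) or GGGCGG (the GC box) on either strand, and matches that overlap were each counted. Crisp1 (chr17:40319208-40319457, minus strand) holds TATAAA 31 to 26 bases before the start. Defb26 (chr2:152511737-152511986, minus strand) holds AGAACA on the opposite strand. Col3a1 (chr1:45311288-45311537, plus strand) holds TATAAA 117 to 112 bases before the start, and Col1a2 (chr6:4505368-4505617, plus strand) holds GGGCGG at 205 to 200 and at 188 to 183 bases. The bases after the start were found in a GENCODE transcript of the gene for all of these except Defb26.
Crisp1: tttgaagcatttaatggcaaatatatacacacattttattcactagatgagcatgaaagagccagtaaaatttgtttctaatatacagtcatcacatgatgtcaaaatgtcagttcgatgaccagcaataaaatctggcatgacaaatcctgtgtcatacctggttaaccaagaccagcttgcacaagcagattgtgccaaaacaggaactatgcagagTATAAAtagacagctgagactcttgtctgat
Defb26: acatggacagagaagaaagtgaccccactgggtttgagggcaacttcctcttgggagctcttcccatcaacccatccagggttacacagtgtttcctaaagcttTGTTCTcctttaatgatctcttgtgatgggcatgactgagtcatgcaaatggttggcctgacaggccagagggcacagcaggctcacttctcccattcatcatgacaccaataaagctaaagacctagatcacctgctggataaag
Col3a1: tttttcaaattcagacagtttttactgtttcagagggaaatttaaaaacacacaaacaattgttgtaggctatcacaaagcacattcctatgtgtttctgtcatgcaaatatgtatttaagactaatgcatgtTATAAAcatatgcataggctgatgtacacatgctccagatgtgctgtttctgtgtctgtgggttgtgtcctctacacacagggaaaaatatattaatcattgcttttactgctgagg
Col1a2: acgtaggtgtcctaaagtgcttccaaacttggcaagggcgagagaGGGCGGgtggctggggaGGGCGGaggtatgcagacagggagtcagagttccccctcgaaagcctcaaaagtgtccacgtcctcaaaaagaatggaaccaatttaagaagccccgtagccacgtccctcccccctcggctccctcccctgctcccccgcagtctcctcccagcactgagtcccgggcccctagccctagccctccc

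In the full 300-base windows of the table, which run 50 bases past the start, TATAAA occurred in 11.4% of 430 windows of higher shared genes, in 10.7% of 1792 windows of lower ones, in 9.13% of 18007 windows of all genes tested and in 13.6% of all 32851 windows. AGAACA occurred in 20.2%, 14%, 14.6% and 19% of these sets, and GGGCGG in 39.1%, 53.2%, 53.4% and 35.7%. These shares are a description without a test. A match is not a binding site, and 341 of the 624 higher and 1389 of the 1993 lower genes had a window.

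Shared genes also lay next to each other. In the order of tested genes along the GRCm38.p6 assembly, 67 of 493 placed higher genes (13.6%) had another higher gene as a direct neighbour, while 4.95% of all placed genes lay beside one. Of the lower genes 596 of 1938 (30.8%) did, against 18.6%. Among the higher runs were secretory gene clusters: Defb26, Defb28 and Defb29 with Gm14161 on chromosome 2 (152507756 to 152572364), Defb37 to Defb40 on chromosome 8 (18974914 to 19064921), Serpina16 and Serpina1f with Ppp4r4 and Gm5656 on chromosome 12 (103532250 to 103704598), Rnase9, Rnase11 and Rnase12 on chromosome 14 (51038459 to 51057242) and Pate1, Pate2 and Pate3 on chromosome 9 (35611800 to 35687371). The longest lower run held 7 interferon-inducible p200 genes on chromosome 1 (173673628 to 173942866), and among the lower runs of 5 genes were Hoxc genes on chromosome 15 (102977032 to 103036856). Col3a1 and Col5a2 were neighbours on chromosome 1, as were the proteoglycan genes Aspn, Omd and Ogn with Ecm2 on chromosome 13 (49504810 to 49624501). With the factors at 1 no gene of the chromosome 8 run (Defb37 to Defb40) was still called higher. Some members of the other higher runs, such as Defb29, Serpina16, Rnase11 and Pate3, also lost their calls. Genes of such clusters can share reads with near-identical copies, so single members are less certain than the cluster.

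The kept cells were also split by their markers. A cell was called principal-led when its share of principal cell markers was at or above that of its own library. A cell under 0.5 of that share was named after the other marker list that it exceeded most, by at least 2 times its library's share. These classes are ranges set within each library and not cell types, and 13188 cells (31.9%) lay within 0.8 to 1.2 times the principal limit. Since the limits move with each library's own marker level, the sizes of these classes cannot be compared between the ages. With fibroblast- and myoid-led cells left out, 490 shared genes were higher and 1717 lower, and 1645 of the 1993 lower genes were shared again. At P42 fibroblast-led cells held only 46.8% of the Col1a1, 42.9% of the Col3a1 and 37% of the Sparc UMIs. Leaving them out therefore did not remove all fibroblast RNA, and these counts cannot tell whether the drop depends on it.

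Within principal-led cells, 182 of 17891 genes (1.02%) were higher and 854 (4.77%) lower at P56. Of the higher shared genes 580 were tested there, 128 (22.1%) were called higher, and all 580 had the same sign. Of the lower ones 742 of 1776 (41.8%) were called lower and 1774 had the same sign. These cells are part of the sums above, so this is not a separate sample, and the principal cell markers among the genes, such as Crisp1, helped to choose the cells. The limit was each library's own level of these markers, 78140 and 30211 unscaled CPM in the P42 caput and corpus. At P56 it was 148895 and 132171 (caput) and 63994 and 55013 (corpus). The level of these markers within the class was thus in part set by the limit. Crisp1 changed by 1.95 ± 0.31 (adjusted p = 0.0171), Cd52 by 1.44 ± 0.318 and Ces5a by 1.35 ± 0.273, less than in the sums. Spink8 (1.22 ± 0.412, adjusted p = 0.0789), Defb28 (0.91 ± 0.359) and Wfdc10 (0.95 ± 0.291) no longer passed. Collagen genes remained lower, with Col1a1 at 72.2, 227 and 2668 CPM in principal-led cells of the P42 caput, corpus and cauda and 14.6 to 87.0 CPM at P56. In the median principal-led cell, fibroblast markers took 2.07% of the UMIs in the P42 cauda and at most 0.025% in any P56 library. In those P42 cauda cells the principal cell markers took 1.82%, less than the fibroblast markers, against 6.54% and 6.98% in the P56 cauda, and their median was 1965 UMIs against 7502 and 8094. The name principal-led thus does not hold for that library. Without the cauda, a choice made after seeing these values, edgeR called 90 genes (0.537%) higher and 113 (0.675%) lower in principal-led cells, and DESeq2 191 and 273. Of the shared genes tested, 44 of 565 higher and 85 of 1502 lower ones were then called. Crisp1 (1.74 ± 0.234, adjusted p = 0.0274), Cd52 (1.18 ± 0.195), Ces5a (1.01 ± 0.17) and Col1a1 (-2.94 ± 0.251, adjusted p = 0.00788) still passed. In the segments kept, fibroblast markers took 0.0329% (caput) and 0.134% (corpus) of the UMIs of the median principal-led cell at P42. At P56 they took at most 0.0139% (caput) and 0.00693% (corpus). RNA of other cells and RNA of the principal-led cells themselves cannot be told apart here.

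Clear/narrow-led cells are named after markers of the proton-secreting cells of the duct. In them 158 of 11427 genes (1.38%) were higher and 265 (2.32%) lower. Of the shared genes tested there 89 of 271 (32.8%) were called higher and 181 of 918 (19.7%) lower, and 266 and 878 had the same sign as in the sums. Genes of principal cells moved there as well: Crisp1 had 38.9, 1539 and 655 CPM in the P42 caput, corpus and cauda and 122 to 7523 CPM at P56, with a log2 fold change of 2.30 ± 0.307 (adjusted p = 0.0019). So did genes of fibroblasts, with Col1a1 at 70.8, 195 and 2092 CPM at P42 and 6.75 to 80.5 CPM at P56. In these cells 7 of 19 principal cell markers were higher and 9 of 10 fibroblast markers lower. The P42 cauda gave 83 such cells, with medians of 0.606% of UMIs for fibroblast markers and 0.699% for clear/narrow markers. In the P56 cauda fibroblast markers took 0.0369% and 0.0411%, and clear/narrow markers 0.668% and 0.689%. The principal limit that clear/narrow-led cells lie under was itself set by each library's share. RNA that came from other cells and RNA of the cells themselves cannot be told apart in these barcodes. The immediate-early genes were lower there in 7 of 19 cases, Junb by 1.18 (SE 0.173, adjusted p = 0.00272). In principal-led cells 2 of 19 were lower, and Junb did not pass (-0.92 ± 0.277, adjusted p = 0.0609). The difference between the classes was not tested.

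**Figure D5:**
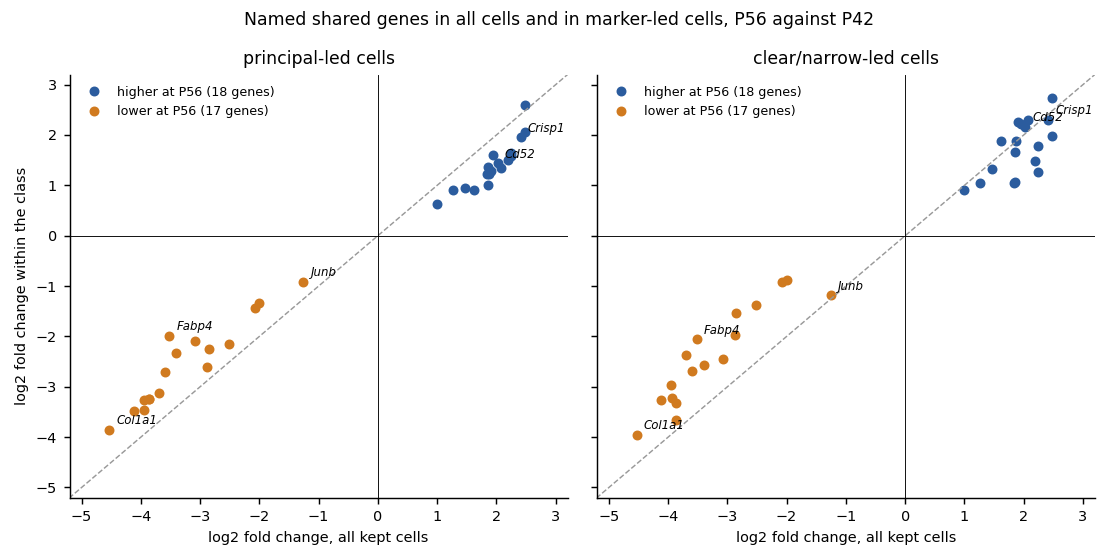
Log2 fold change, P56 against P42, of the 35 named shared genes in all kept cells (x axis) and within principal-led or clear/narrow-led cells (y axis), with a dashed line of equality. All points keep their sign in both classes, and most lie closer to 0 than in all cells (Crisp1 1.95 in principal-led cells against 2.41).

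The size of the age difference itself differed between segments for 2994 genes (14.1%) by an interaction test of age and segment. Among the shared genes 110 of those higher (17.6%) and 562 of those lower (28.2%) passed it. The 3 genes with the largest statistic were not shared. Fcgr2b, an inhibitory antibody receptor, changed by 0.00 in the caput and -4.35 in the cauda, where it went from 123 to 5.89 and 6.12 CPM. Sfn, an epithelial 14-3-3 protein, changed by -0.28 in the caput and 3.62 in the cauda. Mmp7, a matrix metalloprotease, changed by -0.93 and 3.91, from 13.6 CPM to 217 and 192 CPM in the cauda. Each P42 segment was 1 library, so these tests take their spread from the P56 pairs.

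The P56 pools gave the scale of differences between pools of the same age. Between replicate 2 and replicate 1, 47 of 20158 genes were called (0.233%), 32 higher and 15 lower. Among 9229 genes of at least 10 CPM in some library, 0 were at least 2-fold higher and 1 at least 2-fold lower in all 3 segments of replicate 2 against replicate 1. The same count, with no test, was 102 higher and 571 lower for replicate 1 against P42, and 71 higher and 431 lower for replicate 2 against P42. By the same edgeR test as between the P56 pools, each P56 pool against P42 gave 0 calls, fewer than between the P56 pools; these are the fits without a P56 replicate given above, with 4988 (replicate 1) and 4395 (replicate 2) genes at an unadjusted p under 0.05 and the DESeq2 counts beside them.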

How the data were processed

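Single-cell RNA-seq libraries of the caput, corpus and cauda epididymis were made by the authors from 1 pool of P42 mice and 2 pools of P56 mice. The deposited values are raw UMI counts per gene and barcode, not normalized. Per the labels, reads were processed with STAR 2.7.3a and UMI-tools on GRCm38.p6; the strand setting of the counting was not given in the sources used here, so overlapping and antisense genes are uncertain, as are near-identical copies.

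Barcodes were kept by the limits given above, no doublet caller was run, and UMIs were summed per library. The comparison used edgeR 4.0.16 (quasi-likelihood test, TMM scaling, segment as a block, R 4.3.3) on 21256 genes, with 10939 left out by the filter on low counts, and adjusted p-values are Benjamini-Hochberg over all genes tested. DESeq2 1.42.0 and limma 3.58.1 served as alternatives. Summaries used Python 3.11.15. The fits were also run on simulated data, drawn independently for each library with equal changes in every segment. Differences between pools were not simulated, so that run does not bear on the single P42 pool. The members and gene lists were chosen with earlier results of these data known. Named genes were the 12 per direction with the largest change in their least changed segment (mean of at least 10 CPM, predicted and clone names left out), the 8 per direction of highest level, up to 4 per list by level and 3 by interaction, with globin genes left out. Other genes were chosen after their values were seen. Deviations of the P56 replicates from their segment means correlated between segments at 0.176, 0.127 and 0.287, and a replicate number marks the same pool of mice in each segment. The values of some single genes are not reported here.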

Additional observations from a re-analysis of the deposited data

Results flagged for a closer look

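For the genes below the size of the age difference differed between segments by the interaction test of edgeR. Each P42 segment was 1 library, so the spread in this test comes from the P56 pairs. Among the higher genes the adjusted p was 0.0393 for Crisp1, 0.0351 for Rnase9, 0.014 for Ces5a, 0.0225 for Cd52, 0.00602 for Spink8, 0.0317 for Wfdc10 and 0.0176 for Defb28, all with their largest change in the cauda. For Fam221b it was 0.0478, with the largest change in the caput.

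Among the lower genes the adjusted p of edgeR's interaction test was 0.0302 for Col5a2, 0.00796 for Col15a1, 0.0152 for Col6a2, 0.0404 for Lox, 0.022 for Col6a3, 0.0406 for Sparc, 0.0154 for Dcn, 0.031 for Cd74 and 0.00965 for Gsn, again with the largest change in the cauda. For Junb it was 0.0358, with log2 fold changes of -1.74, -0.52 and -1.44 in the caput, corpus and cauda. Fcgr2b, Sfn and Mmp7 each had 0.00506.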

How the results depend on the processing

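With the TMM factors set to 1, 202 genes were called higher and 5257 lower (131 and 4313 shared). With the pool as a random replicate block in limma voom, 1732 were called higher, and the other counts stayed within 1.5 times (3285 called lower, 764 and 2207 shared). The estimated correlation within a pool was -0.239, and a negative value makes the standard error of the age difference smaller. Age lies between pools and P42 is 1 pool, so this block cannot account for differences between pools. With 1 value per pool in limma, P42 was a single value and all of the spread came from the 2 P56 pools, so its counts are not given. All 624 higher and 1993 lower shared genes kept their sign in that fit, which the rule for shared genes fixes in advance. Without either P56 replicate edgeR called 0 genes in each direction, 0 shared, with a smallest adjusted p of 0.159 and 0.0664, and without the corpus also 0 (0.0628). With DESeq2, chosen after seeing the data, leaving out a P56 replicate gave 474 to 628 genes higher and 1452 to 1571 lower (351 to 539 and 1217 to 1444 shared). Without the caput 1328 were called higher (1275 higher and 3204 lower shared), and without the cauda 407 and 1248 (394 and 1243 shared). With each cell thinned to 1000 UMIs, 546 were called higher (379 shared). Genes called between the P56 pools numbered 458 with no filter and 10 with the factors at 1. In principal-led cells, leaving out the cauda (chosen after seeing the data) gave 90 higher and 113 lower with edgeR and 191 and 273 with DESeq2. The cause of these shifts was not tested. The counts of called and shared genes stayed within 1.5 times with DESeq2 on all libraries, no filter, mitochondrial genes left out, libraries thinned, stricter barcode limits, and fibroblast-, myoid- or sperm-led cells left out. No called named gene changed direction, while uncalled ones near 0 turned with the factors at 1, such as Pcna (0.33 to -0.24), Gnas (0.22 to -0.37), Lcn8 (0.03 to -0.58), H2-D1 (0.13 to -0.44) and Hspa8 (0.28 to -0.30). The interaction test could not be fitted without a P56 replicate, and the single P42 pool could not be left out.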

Other observations

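Spink14, a Kazal-type inhibitor named here after its values were seen, had the largest fold change of its family but was not shared. It changed by 5.82 ± 1.21 on the log2 scale (adjusted p = 0.0131, edgeR), from a mean of 1.57 CPM at P42 to 127 CPM at P56. Of 5 mast cell markers 4 fell and 0 were shared, and of 12 T and NK lymphocyte markers 7 fell and 2 were shared. Of 30 tested serpins 3 rose and 11 fell (median -0.934), beside 3.99% and 11.9% of all genes tested. Among 4 tested adipocyte markers 1 rose and 2 fell.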
